A study of Mus musculus with 8 samples.

Results

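The genes described here mark tuft cells, rare chemosensory cells of the intestinal lining. They are 9 of the 36161 gene names on the array: Dclk1, Trpm5, Pou2f3, Gfi1b, Avil, Il25, Ptgs1, Alox5ap and Plcb2, chosen by gene name. Every non-control probe carrying one of these names on a 1-colour Agilent array was taken, which gave 13 of 55681 distinct probes: 4 for Dclk1, 2 for Plcb2 and 1 for each of the other 7 genes. RNA of mouse small intestine at embryonic day 18.5 was measured on 8 arrays, 4 of controls and 4 of mutants. Control replicates 1, 3 and 4 carried 1 floxed Rfx6 allele (Rfx6 fl/+) and control replicate 2 carried 2 (Rfx6 fl/fl), with no Cre named. The mutants were Rfx6 fl/fl Ngn3-cre, in which Cre recombinase, driven from Ngn3, a gene of endocrine progenitors, is meant to delete Rfx6, a transcription factor of endocrine cells. Every mutant and no control is labelled with Cre, so Cre and the loss of Rfx6 cannot be told apart, and the labels give no strain. The study asked which intestinal genes depend on Rfx6 in endocrine cells. The RNA came from the whole small intestine, so fewer cells of a type and less RNA per cell cannot be told apart. The labels do not say that the samples came from separate embryos, so the p-values measure the spread between these samples only.

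Tuft cells read the gut contents with the signalling chain of taste cells. A receptor acts through a G protein on a phospholipase, encoded by Plcb2, and the calcium released opens the cation channel encoded by Trpm5. The transcription factor Pou2f3 is needed to make these cells, and Gfi1b encodes a repressor that marks them and also works in red cell and megakaryocyte precursors. Tuft cells answer worms and other signals with the cytokine encoded by Il25 and with lipid mediators made with the products of Ptgs1 and Alox5ap. Dclk1, which encodes a doublecortin-like kinase, is the most used marker of adult tuft cells, and Avil encodes advillin, an actin-binding protein of the villin family. Several of these genes are also used elsewhere: Dclk1 and Avil in neurons, and Ptgs1, Alox5ap and Plcb2 in blood-derived cells. Whether tuft cells were present in these embryonic samples was not tested, so the results are about these genes.

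Each value rests on 1 spot of a 60-base probe, and the sequences of 3 probes are shown because they fix what was measured. The Dclk1 probe is the 5′-most of the 4 Dclk1 probes by position (chr3:55266925-55266984, plus strand, mm9), the Plcb2 probe is the one of its pair that was above background on all 8 arrays (chr2:118542766-118542825, minus strand), and the Avil probe is listed over 525 bases of genome (chr10:126453541-126454065, plus strand), more than its own length. Which exon or UTR a probe lies in was not analysed here. Each sequence is given 5′ to 3′ as deposited and holds at least 1 forward reading frame without a stop codon.
Dclk1 A_55_P2148748: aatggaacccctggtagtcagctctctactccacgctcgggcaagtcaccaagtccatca
Plcb2 A_55_P1961444: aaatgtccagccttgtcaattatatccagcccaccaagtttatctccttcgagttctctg
Avil A_51_P166339: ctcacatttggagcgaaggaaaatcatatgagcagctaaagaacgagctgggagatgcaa

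Levels are log2 processed intensity minus the log2 of the array's 75th percentile, so that 0 is the 75th percentile, and differences are mutant minus control. A probe was tested when it was well above background, by the scanner software's own flag, on at least 4 of the 8 arrays whatever the group. The 75th percentile was 788 to 1027 intensity units across arrays, 59.7% to 69.9% of probes were well above background, and the lowest level at which a probe was so called lay between -6.19 and -5.32. The epithelial markers Vil1, Epcam, Cdx2, Cdh1, Fabp1 and Krt20 were well above background on all 8 arrays. Mutant replicate 1 stood apart, correlating on average at 0.975 with its 7 fellow arrays across probes, where the rest reached 0.989 to 0.990. The Rfx6 probe did not separate the groups, at -3.48 to -2.93 in controls and -5.52 to -3.02 in mutants (difference -0.50, SE 0.52, limma adjusted p = 0.828), so it does not check the labels.

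Of the 13 probes of the tuft cell genes, 8 were well above background on all 8 arrays and 1 on none, and no gene passed the test between mutants and controls. In all, 9 probes of 6 genes were tested and 0 passed an adjusted p of 0.05 in limma, against 0.0423% of all 35472 tested probes (15 probes), of which 0.00282% were called higher and 0.0395% lower. At an unadjusted p under 0.05 there was 1, the Gfi1b probe, where 5.05% of all probes had such a p. The groups overlapped for all 9 tested probes, whereas they did not overlap for 4.37% of all tested probes. Of the 9 differences, 6 were above 0 and 3 below, from -0.31 for a Plcb2 probe to 0.44 for Gfi1b, with a median of 0.11 beside 0.02 over all tested probes. The 95% confidence interval of each of the 9 differences lay between -0.80 and 0.90, within 2-fold in either direction, as it did for 88.0% of all tested probes. The residual SD between replicates was 0.16 to 0.41 for these probes, with a median of 0.27 beside 0.20 over all.

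**Figure D1:**
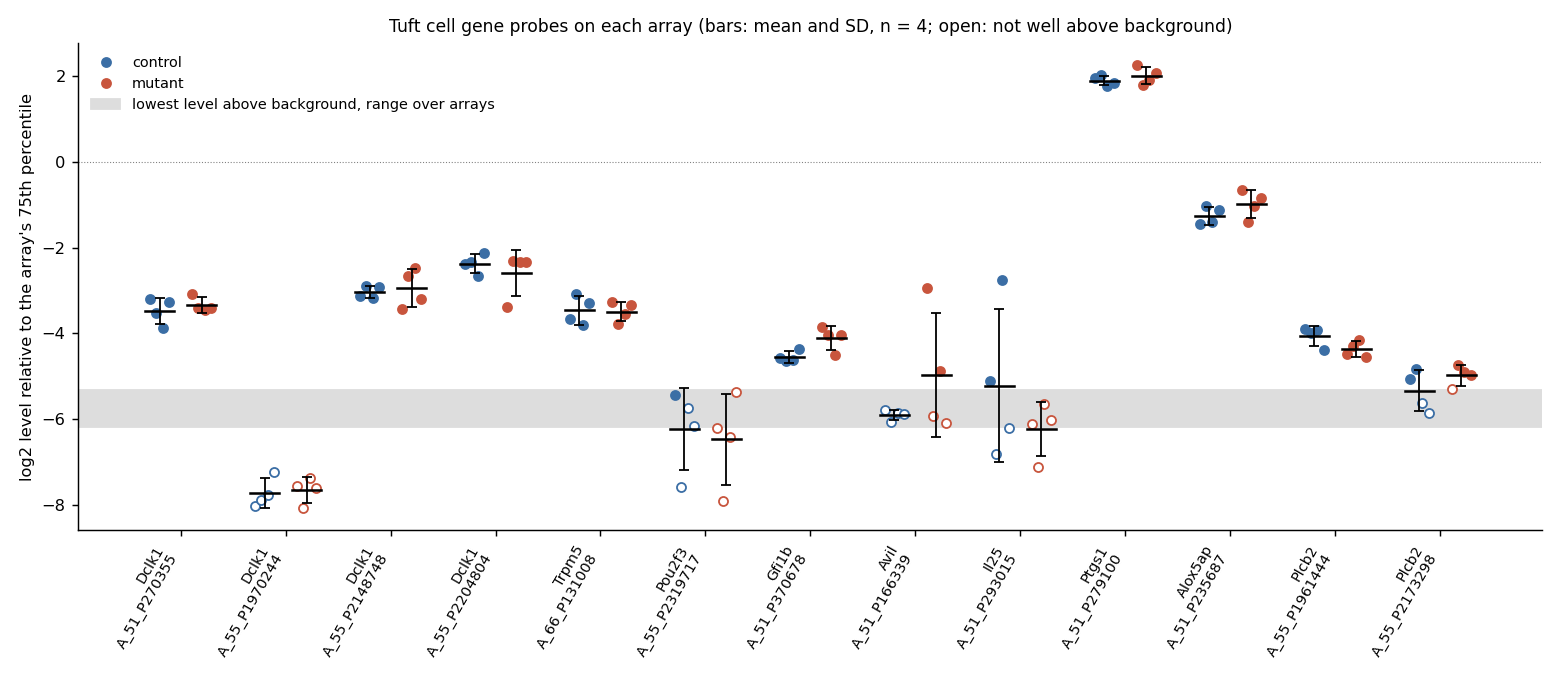
Log2 level relative to the array's 75th percentile (vertical axis) of each of the 13 tuft cell gene probes (horizontal axis) on each of 4 control and 4 mutant arrays. Bars are the mean and SD (n = 4 arrays), open circles mark arrays where the scanner flag was 0, and the grey band spans -6.19 to -5.32; control and mutant points overlap for every probe, and the Ptgs1 points lie above 0.

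Dclk1 was detected by 3 of its 4 probes on all 8 arrays, and none separated the groups. The 3′-most probe, A_51_P270355 (chromosome 3, 55340456 to 55340515, mm9), read -3.20, -3.51, -3.88 and -3.27 in controls and -3.07, -3.41, -3.46 and -3.41 in mutants. The mutant values lay inside the range of the controls except in mutant replicate 1, which was above all others. Their means were -3.47 ± 0.31 and -3.34 ± 0.18 (SD, n = 4 each), 0.13 apart (SE 0.17, 95% interval -0.25 to 0.51, limma adjusted p = 0.848). The 5′-most probe, A_55_P2148748, read -3.13, -2.90, -3.17 and -2.93 in controls and -3.42, -2.66, -2.48 and -3.20 in mutants, a difference of 0.09 (SE 0.21, interval -0.39 to 0.57, adjusted p = 0.914). Here mutant replicates 2 and 3 were above every control and replicates 1 and 4 below every control. A further probe, A_55_P2204804 (chromosome 3, 55273441 to 55273500), read -2.39, -2.32, -2.66 and -2.13 in controls and -3.39, -2.30, -2.34 and -2.34 in mutants, a difference of -0.22 (SE 0.25, interval -0.80 to 0.36, adjusted p = 0.840). Mutant replicate 1 alone was low on this probe, and without that array the difference was 0.05 (SE 0.12). The array that was lowest of all on this probe was thus the highest on the 3′-most probe of the same gene. The fourth probe, A_55_P1970244 (chromosome 3, 55325921 to 55325980), was not well above background on any array, and all 8 of its intensities were surrogate values set by the scanner software.

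The taste-type signalling genes Trpm5 and Plcb2 were likewise detected, and no probe of either passed the test. Trpm5 (chromosome 7, 150257434 to 150257456, mm9, a listed span shorter than the probe) read -3.67, -3.08, -3.80 and -3.30 in controls and -3.27, -3.78, -3.55 and -3.34 in mutants. All mutant values lay within the range of the controls. The means were -3.46 ± 0.33 and -3.49 ± 0.23 (SD, n = 4 each). Mutants thus differed by -0.03 (SE 0.18, interval -0.45 to 0.39, limma adjusted p = 0.976), and the sign turned under normexp background correction (0.03). Plcb2 A_55_P1961444 read -3.90, -3.98, -3.93 and -4.39 in controls and -4.47, -4.28, -4.15 and -4.56 in mutants. Only control replicate 4 was among the mutants, and the difference was -0.31 (SE 0.14, interval -0.64 to 0.01, adjusted p = 0.828). The other Plcb2 probe, A_55_P2173298 (chromosome 2, 118533330 to 118533389), was well above background on 2 control and 3 mutant arrays. It read -5.06, -4.82, -5.62 and -5.85 in controls and -5.31, -4.73, -4.90 and -4.98 in mutants, and its difference had the other sign, 0.36 (SE 0.24, interval -0.18 to 0.90, adjusted p = 0.828). The probes of Plcb2 thus differed in sign, and both values moved in either direction under other processing. A_55_P1961444 was -0.055 with normexp, -0.098 on the deposited value table and -0.43 without control replicate 4. A_55_P2173298 was 0.040 on the value table, 0.19 without control replicate 4, and 0.53 with array weights or without control replicate 2.

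Of 11 further genes of taste-type signalling, 7 were tested and 0 passed, 3 higher and 4 lower, with a median of -0.01. Itpr3, which encodes the calcium release channel of this chain, differed by 0.06 (SE 0.13). Plcg2, a phospholipase gene, differed by 0.01 (SE 0.12). Ffar3, a receptor gene for short-chain fatty acids that endocrine cells also use, differed by -0.01 (SE 0.09). The 4 untested genes, named after their values were seen, were Gnat3, which encodes the G protein subunit gustducin, Rgs13, and the taste receptor genes Tas1r1 and Tas1r2. Gnat3, Rgs13 and Tas1r2 were not well above background on any array.

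Of the transcription factor genes, Pou2f3 was at the edge of detection. Pou2f3 (chromosome 9, 42932963 to 42933022, mm9) read -5.43, -7.58, -5.74 and -6.15 in controls and -6.21, -7.90, -6.41 and -5.37 in mutants, and was well above background on control replicate 1 only. It was therefore not tested in the main fit, and no fold is given. When no filter on dim probes was applied, the difference was -0.25 (SE 0.62, interval -1.67 to 1.18, limma adjusted p = 0.959). Replicate 2 was the lowest array in each group.

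Gfi1b had the only unadjusted p under 0.05 among the 9 tested probes and did not pass after adjustment. Gfi1b (chromosome 2, 28464982 to 28465041, mm9) read -4.58, -4.65, -4.61 and -4.36 in controls and -3.85, -4.03, -4.51 and -4.03 in mutants. In mutants 1, 2 and 4 it was above every control, and mutant 3 lay within the range of the controls. The means were -4.55 ± 0.13 and -4.10 ± 0.28 (SD, n = 4 each), so that mutants were 0.44 higher (SE 0.15, interval 0.10 to 0.79, unadjusted p = 0.0176, limma adjusted p = 0.828). The difference was 0.23 (SE 0.09) on the deposited value table and 0.26 (SE 0.10) with normexp. Before scaling, the intensities were 40.6 to 47.0 units in controls and 42.9 to 63.1 in mutants. Of 5 tested erythroid markers 0 passed, 4 higher and 1 lower, with a median of 0.05. The largest of these differences was that of Klf1, at 0.57 (SE 0.24, limma adjusted p = 0.828). Klf1 was well above background on 1 control and 3 mutant arrays. The erythroid markers summed to 160 to 345 times the 75th percentile in controls and 162 to 269 times in mutants. The globin genes Hba-a1 and Hbb-b1 made up most of these sums, so the sums say little about dim markers such as Klf1. Of 5 tested platelet and megakaryocyte markers 0 passed, with a median of 0.02 and sums of 2.89 to 3.33 in controls and 2.83 to 4.46 in mutants. The part of these cells in the Gfi1b value was not tested.

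Il25 and Avil were each seen on 2 arrays, all of 1 group. Il25 (chromosome 14, 55554319 to 55554378, mm9) read -5.11, -6.81, -2.75 and -6.20 in controls, well above background on replicates 1 and 3, and -6.11, -7.12, -5.64 and -6.02 in mutants, well above background on none. Control replicate 3, at 149 intensity units, was far above the other 7 arrays, which read 6.30 to 27.9 units. By group means, with mutant values set no lower than the lowest level called above background on their array, Il25 was at least 1.42-fold lower in mutants. Without control replicate 3 this ratio was 0.802, so that no fold can be given. Avil had the opposite arrangement, at -5.78, -6.07, -5.86 and -5.88 in controls, well above background on none, and -2.95, -5.94, -4.88 and -6.09 in mutants, well above background on replicates 1 and 3. Mutant replicates 2 and 4 were thus at the level of the controls, and the bound on the group means was at least 1.73-fold higher in mutants. Without mutant replicate 1 the bound was 1.09-fold, and without each of the other mutants in turn it was 1.70 to 2.25-fold. Neither gene was tested in the main fit. When no filter on dim probes was applied, the differences were 0.94 for Avil (SE 0.63, interval -0.52 to 2.40) and -1.01 for Il25 (SE 0.82, interval -2.90 to 0.89), each with a limma adjusted p of 0.959. The interval of Avil reaches past 2-fold higher in mutants and that of Il25 past 2-fold lower, so differences of that size were not excluded in these directions. Of 6 enteric neuron markers 0 passed, with a median of 0.05 and sums of 24.1 to 28.1 in controls and 22.3 to 27.7 in mutants. Snap25 made up most of these sums.

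The lipid mediator genes Ptgs1 and Alox5ap were well above background on all 8 arrays and overlapped between the groups. Ptgs1, which encodes cyclooxygenase 1 (chromosome 2, 36107644 to 36107703, mm9), read 1.95, 2.03, 1.78 and 1.84 in controls and 2.27, 1.80, 1.92 and 2.07 in mutants. The groups were interleaved, with mutant replicate 1 highest. The means were 1.90 ± 0.11 and 2.01 ± 0.20 (SD, n = 4 each), which lie 0.11 apart (SE 0.12, limma adjusted p = 0.832), and the interval of -0.16 to 0.39 runs from 1.12-fold lower to 1.31-fold higher. The difference was 0.030 (SE 0.097) without mutant replicate 1. Alox5ap, whose product presents arachidonic acid to 5-lipoxygenase (chromosome 5, 150099347 to 150099406), read -1.45, -1.04, -1.41 and -1.13 in controls and -0.66, -1.41, -1.03 and -0.83 in mutants. Mutant replicates 1, 3 and 4 were above every control and replicate 2 was among the low controls. The difference was 0.27 (SE 0.18, interval -0.13 to 0.68, adjusted p = 0.828), and it was 0.17 (SE 0.16) without mutant replicate 1.

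Of 7 other genes of lipid mediator synthesis, all were tested and 0 passed, 4 higher and 3 lower, with a median of 0.05. For Ltc4s, which encodes leukotriene C4 synthase, the groups did not overlap, as for 2.81% of all tested probes in this direction. Ltc4s read 0.55, 0.44, 0.58 and 0.57 in controls and 1.28, 0.67, 0.86 and 0.72 in mutants, 0.35 higher on average (SE 0.14, limma adjusted p = 0.828). The highest array was mutant replicate 1, in whose absence the difference was 0.21 (SE 0.08, adjusted p = 0.756). Ptges, a prostaglandin E synthase gene, differed by 0.05 (SE 0.10), Pla2g4a, which encodes the phospholipase that frees arachidonic acid, by -0.09 (SE 0.13), and Tbxas1, the thromboxane synthase gene, by 0.05 (SE 0.12). Myeloid and mast cells use many of the same enzymes. Of 10 tested myeloid markers 0 passed, 6 higher and 4 lower, with a median of 0.05 and sums of 85.9 to 101 in controls and 82.3 to 106 in mutants. Csf1r and Itgam made up most of the myeloid sums. All 5 tested mast cell markers were above 0 without passing, with a median of 0.25 and sums of 1.65 to 2.68 in controls and 2.29 to 2.66 in mutants. Their part in the lipid mediator values was not tested.

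**Figure D2:**
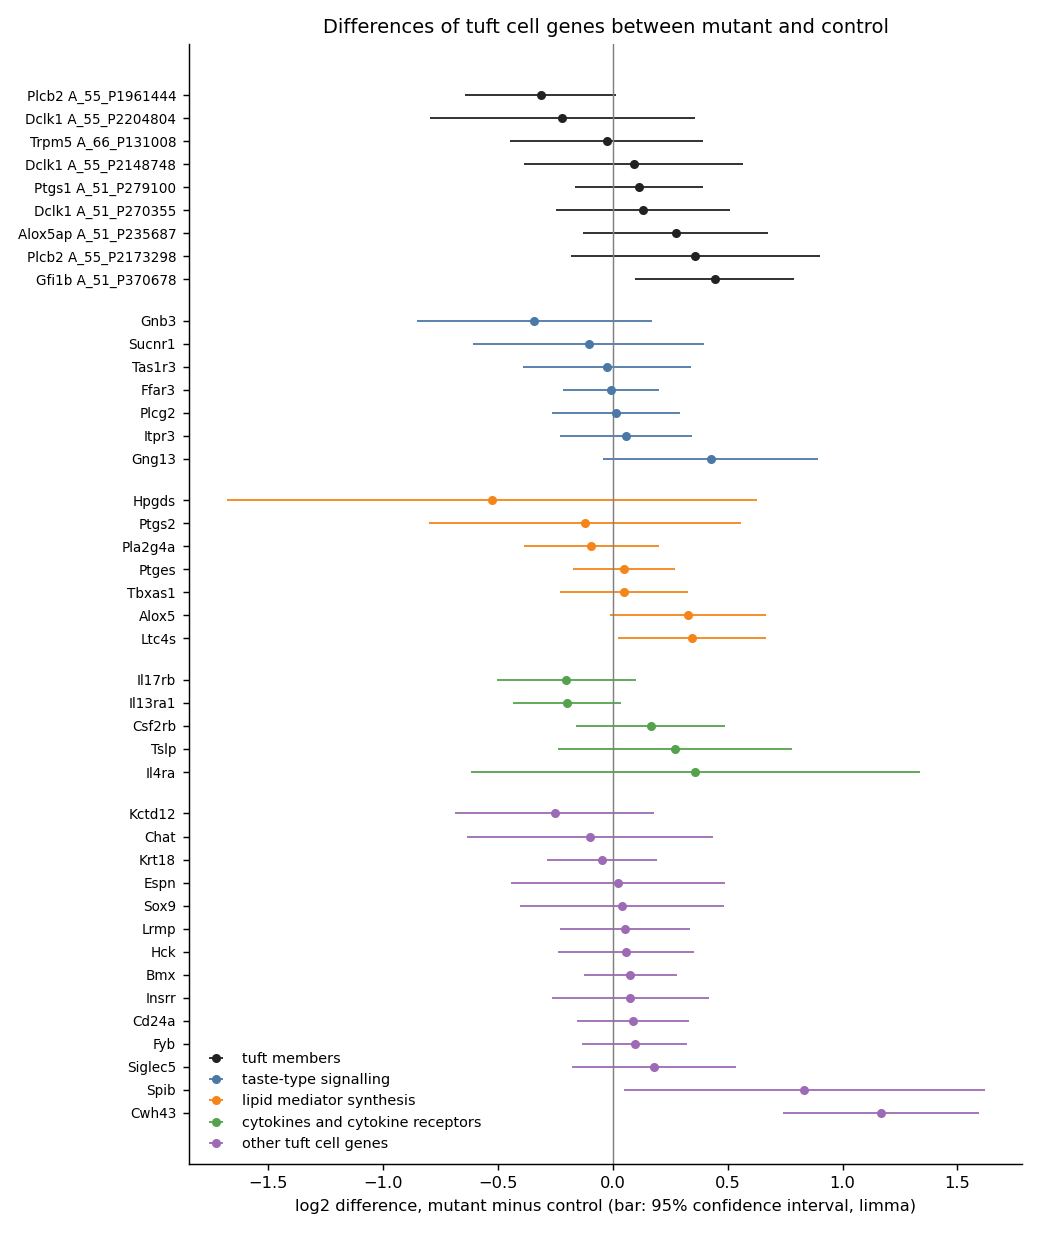
Log2 difference, mutant minus control, with its 95% confidence interval from limma (horizontal axis) for the 9 tested tuft cell gene probes and the 33 tested genes of 4 associated lists, each list in its own colour. Cwh43, at 1.17, has the largest difference shown, and the intervals of Gfi1b, Ltc4s and Spib also lie above 0.

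No cytokine gene or other tuft cell gene passed either. Of 7 genes of cytokines and their receptors, 5 were tested and 0 passed, with a median of 0.17. Il13ra1, part of the receptor through which interleukin 13 expands tuft cells, read -1.14, -1.23, -1.31 and -1.32 in controls and -1.66, -1.33, -1.35 and -1.45 in mutants. The groups did not overlap, by a margin smaller than the spread within either, and the difference was -0.20 (SE 0.10, limma adjusted p = 0.828). Leaving out mutant replicate 1 gave -0.13 (adjusted p = 0.843). For 1.56% of all tested probes the groups did not overlap in this direction. Il4ra differed by 0.36 (SE 0.43), Csf2rb by 0.17 (SE 0.14) and Tslp, an epithelial cytokine gene, by 0.27 (SE 0.22). The other 2 genes, Il4 and Il13, named after their values were seen, were well above background on 2 arrays and on none.

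Of 15 other tuft cell genes, 14 were found on the array and tested, and Sh2d6 was not found under its name. None passed, 11 were higher and 3 lower, and the median was 0.07. Cwh43, which encodes a protein of lipid remodelling on membrane anchors (chromosome 5, 73844293 to 73844352, mm9), read -4.79, -5.33, -4.44 and -5.12 in controls and -3.83, -3.56, -3.77 and -3.84 in mutants. All 4 mutant arrays were above all 4 controls and close to each other, and the probe was well above background on all but control replicate 4. The means were -4.92 ± 0.39 and -3.75 ± 0.13 (SD, n = 4 each). This is a difference of 1.17 (SE 0.19, unadjusted p = 0.000195), or 2.25-fold, with a limma adjusted p of 0.182 that missed the threshold. Among the alternatives it passed with array weights only (difference 1.34, limma adjusted p = 0.0413). The difference was 0.52 with normexp (SE 0.11, adjusted p = 0.309) and 0.54 on the deposited value table (SE 0.08, adjusted p = 0.107). Both had a smaller SE than the main fit. Spib, which encodes an ETS-family transcription factor, read -4.78, -3.73, -3.75 and -4.32 in controls and -2.39, -3.50, -3.65 and -3.71 in mutants, a difference of 0.83 (SE 0.34, adjusted p = 0.828). Its groups did not overlap, but mutant replicate 4 lay next to the highest controls, at -3.71 against -3.73 and -3.75, and leaving out mutant replicate 1 gave 0.53 (SE 0.26, adjusted p = 0.816). The bright members of this list, Krt18, Cd24a and Espn, which are used widely in the epithelium, differed by -0.05 (SE 0.10), 0.09 (SE 0.11) and 0.02 (SE 0.20).

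**Figure D3:**
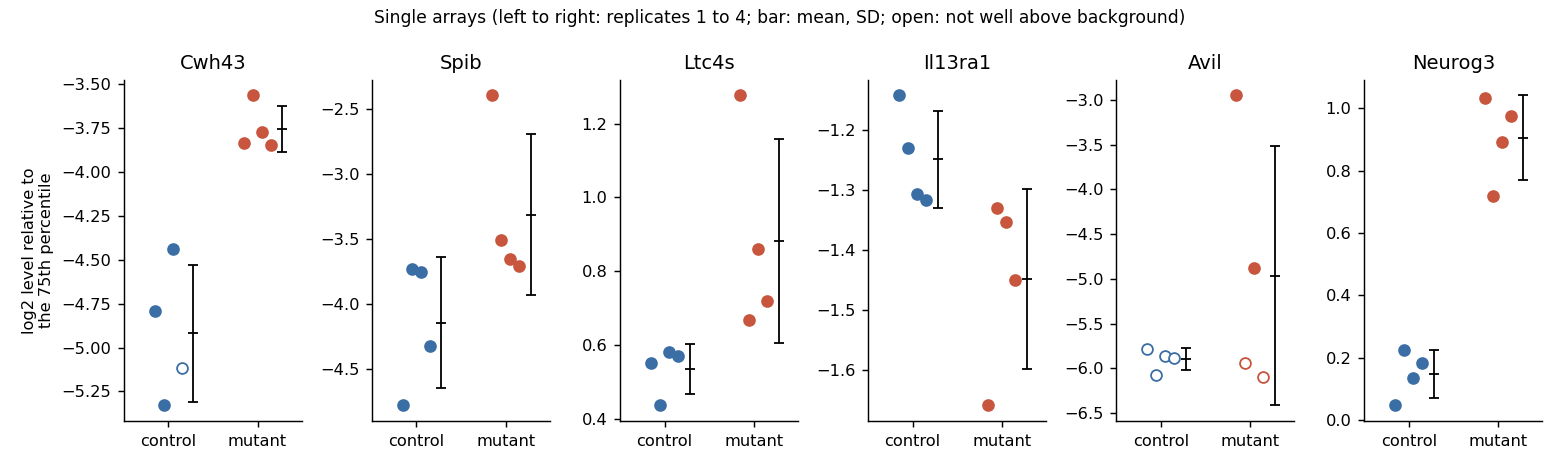
Log2 level relative to the array's 75th percentile (vertical axes, each with its own scale) on each control and mutant array for Cwh43, Spib, Ltc4s, Il13ra1, Avil and Neurog3, with the mean and SD (n = 4). Cwh43 is at -3.84 to -3.56 on all 4 mutant arrays, whereas the higher group means of Spib, Ltc4s and Avil include a mutant replicate 1 that is above every other array.

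No pancreatic acinar marker passed the test. Of 5 such markers, 4 were tested, all with a positive difference and with a median of 2.63, though Ctrb1 and Cpa1 overlapped between the groups. All 5 markers together summed to 0.745 to 1.97 in controls and 2.52 to 13.2 in mutants. The groups did not overlap for the amylase gene Amy2a5 (difference 6.09, SE 1.01, limma adjusted p = 0.196) or for the elastase gene Cela2a, which was at least 3.98-fold higher in mutants and not well above background on any control (adjusted p = 0.153). Cela2a met the filter for testing through the mutant arrays alone, so its non-overlap and p are not independent of that filter. The untested marker, Pnlip, averaged -6.76 in controls and -6.86 in mutants, well above background on 1 array of each group. The part of these markers in the values of Cwh43 and the other tuft cell genes was not tested.

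The same fit called genes of endocrine cells. Of the 9 endocrine markers tested, 4 passed, all lower (Gip, Sst, Ghrl and Cck), and Sst, the somatostatin gene, fell by 4.52 (SE 0.13, limma adjusted p = 6.25e-06). Neurog3 (Ngn3), which marks endocrine progenitors, read 0.05 to 0.23 in controls and 0.72 to 1.03 in mutants, a difference of 0.76 (SE 0.10, adjusted p = 0.0861). Tph1, which encodes an enzyme of serotonin synthesis, differed by 0.60 (SE 0.12, adjusted p = 0.357), also without overlap. The median difference over all tested endocrine markers was -0.27. Among the 40 genes of the associated tuft lists, 33 were tested and 0 passed in either direction, 21 higher and 12 lower, with a median of 0.05.

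**Figure D4:**
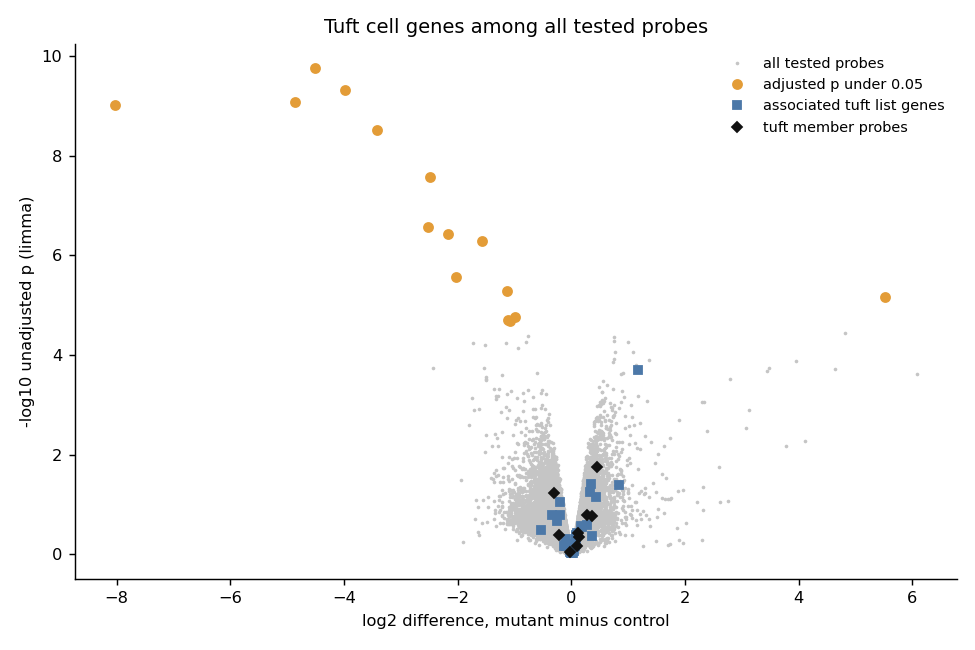
Log2 difference, mutant minus control (horizontal axis), against the -log10 of the unadjusted limma p (vertical axis) for the 35472 tested probes. The 9 tuft cell gene probes (diamonds) lie from -0.31 to 0.44 and the 33 genes of associated lists (squares) from -0.53 to 1.17. Cwh43 is the farthest from 0, followed by Spib at 0.83. The 15 probes past the threshold (orange) include 14 below 0.

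Likeness to Dclk1 A_55_P2204804, the Dclk1 probe with the highest mean, was sought among tested probes with plain RefSeq gene symbols. Rik and Gm names and other Dclk1 probes were left out. Among these, the genes most alike over the 8 arrays were Usp24 (Pearson r = 0.990), Psip1 (r = 0.990) and Myo5a (r = 0.987). These are descriptions over 8 arrays that share 1 slide. Without mutant replicate 1 and control replicate 3, the arrays farthest from the median of Dclk1, r was 0.824, 0.764 and 0.600. Usp24 read -1.35 on mutant replicate 1 and -0.58 to -0.21 on the others, so the likeness included the low value that this array had for Dclk1 A_55_P2204804.

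RefSeq promoters (build GRCm38.p6, 250 bases before to 50 after the start) were given for 6 of the 9 genes, 7 promoters in all. The letters ATGCAAAT, the octamer that POU factors bind, were in 0 of the 7 on either strand, and in 1.74% of all 32851 promoters. The letters GTTGCC, an arm of the X-box that RFX factors bind, were in 1 of the 7, the downstream promoter of Dclk1, and in 12.5% of all promoters. The match lies 48 bases before that start (chr3:55461670-55461695, plus strand, GRCm38.p6) and is shown with its flanks because Rfx6 encodes a factor of this family, with the matched letters in capitals.
Dclk1 downstream promoter: gagtcactgaGTTGCCagcccccaga
A match is a description of these letters only.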

How the data were processed

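The members and gene lists were chosen with earlier results of these data known. Per the labels' protocols, 100 ng of total RNA was labelled with cyanine 3. Per the file headers, the authors scanned 1 slide with Agilent Feature Extraction 10.10.1.1 (array annotation mm9) and deposited linear intensity values, background-corrected and detrended within each array and not normalised between arrays. Non-control spots were scaled to each array's 75th percentile on the log2 scale, outlier spots (117 to 157 per array) were left out, and spots of a probe were averaged. Of 55681 probes, 35472 were tested. The log2 values, computed here from the deposited intensity values, were fitted by group alone (lmFit, then eBayes, of limma 3.58.1, R 4.3.3), with two-sided p-values adjusted by Benjamini-Hochberg over all tested probes. The fit was tested on simulated data. Genes named are all members, Rfx6, list genes past the threshold or without overlap, up to 3 of the brightest others per list, and called endocrine markers. Klf1 and Tubb1 were named after their values were seen. The deposited flag columns and the value table were also used, the latter as an alternative: its columns followed the median intensity (rank correlation at least 0.999974) and had medians near 138 units, as on a linear scale normalised between arrays, a step not given in the sources used here. List genes are given by the tested probe with the highest mean. Sums add the linear levels of all list genes on the array, untested ones included, so the brightest genes weigh most. The 13 lists include 8 of markers for epithelial, endocrine, myeloid, mast, platelet, erythroid, neuronal and acinar cells. For mutant replicates 2, 3 and 4 the description field and the title name different Rfx genes, and titles were followed. Alternatives were normexp background correction (offset 50), quantile normalisation, the value table, 3 other filters on dim probes, 1 probe per gene, array weights, the replicate number or slide row as a block, outlier spots kept, and each array left out. The normexp offset adds 50 units to every spot. Log2 differences and SE of probes as dim as those of Plcb2, Gfi1b and Cwh43 therefore shrink. For these genes both were also smaller on the value table than in the main fit. Promoter sequences came from RefSeq (GRCm38.p6). The number of arrays limits the precision.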

Additional observations from a re-analysis of the deposited data

Results flagged for a closer look

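Among 26 groups of 4 arrays (13 probes, 2 groups), 3 passed Dixon's 95% test for a single outlying array, which chance alone passes in about 1 group of 20, or 1.3 here. Dclk1 A_51_P270355 in mutant replicate 1 was at -3.07, above the -3.46 to -3.41 of the other mutants. Dclk1 A_55_P2204804 in mutant replicate 1 was at -3.39, below the -2.34 to -2.30 of the other mutants. Plcb2 A_55_P1961444 in control replicate 4 was at -4.39, below the -3.98 to -3.90 of the other controls.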

How the results depend on the processing

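Across 19 alternatives the number of member probes called stayed at 0, with adjusted p-values no lower than 0.462. The sign of a member's difference was kept in 157 of 166 refits. It turned for Dclk1 A_51_P270355 without control replicate 3 (-0.0066; range over arrays left out singly up to 0.22), Dclk1 A_55_P2148748 without mutant replicate 2 (-0.0029) or 3 (-0.062; up to 0.25), Dclk1 A_55_P2204804 without mutant replicate 1 (0.048; down to -0.32), and Ptgs1 with array weights (-0.011). For Trpm5 it turned with normexp (0.035) and without control replicate 2 (0.10), control replicate 4 (0.03) or mutant replicate 2 (0.07), and its lowest values were -0.14 among single arrays left out and -0.25 with array weights. For Rfx6 it turned without mutant replicate 1 (0.10), and its lowest value among single arrays left out was -0.73. The cause was not tested. All member intervals stayed within 2-fold in 15 of 19 alternatives, and the upper bound reached 1.09 with array weights. Over all probes, 15 calls became 24 with normexp and 44 with array weights, and 9 to 20 when single arrays were left out. Of the associated genes, 1 was called with array weights (0.12 for mutant replicate 1) and 0 otherwise. With the replicate number as a block, 7 probes were called. Same-numbered samples correlated at -0.09 to 0.10, only 1 of 4 controls correlated best with its own number, and the numbers were not taken as pairs. Signal over background limits Pou2f3, Avil and Il25, which the main filter left untested.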
